A study of Homo sapiens with 30 samples.

Results

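Translation initiation and elongation factors are the proteins that bring ribosomes to mRNA, set the start codon, and move the ribosome along the message. They were taken as every row of the deposited expression values whose symbol begins with EIF1 to EIF6, EEF1, or EEF2, without the EIF2AK kinases and without antisense names. This gave 63 of the 26228 genes listed. Of these, 56 had a mean of at least 1 FPKM (fragments mapped to a transcript, scaled to its length and to all mapped fragments) over all libraries and were tested among 11575 such genes. The cells were SH-EP, an established human neuroblastoma (NB) line of mesenchymal identity without MYCN amplification, and 4 stable derivatives of it. A retroviral transgene in these derivatives expresses WT, T58A, S62A, or T58A S62A MYCN from an exogenous promoter, and both residues are phosphorylation sites that govern turnover of the protein. Each line was grown in DMEM with serum and treated for 6 hours with DMSO or with 1 μM CYC065, an inhibitor of CDK9 and CDK2, in 3 libraries per group. Whether each derivative is a clone or a pool, and whether the 3 libraries of a group came from separate cultures, is not given in the sources used here, so p-values measure only the spread between these libraries, which may be technical.

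Initiation starts when EIF2, a GTP-binding complex recharged by the exchange factor EIF2B, carries the initiator tRNA to the small ribosomal subunit. EIF3, a large scaffold, and EIF1, EIF1A, and EIF5 hold that subunit in a scanning state. The EIF4F complex, made of the cap-binding protein EIF4E, the helicase EIF4A, and the scaffold EIF4G, loads it on the capped mRNA, and EIF5B joins the large subunit. During elongation, EEF1A delivers aminoacyl-tRNA, EEF1B recharges it, EEF2 moves the ribosome, and EIF5A, which carries hypusine, relieves stalled ribosomes. MYC proteins are known for driving genes of protein synthesis, and CDK9 releases paused RNA polymerase II. No line here is labelled as carrying an empty vector, and CYC065 inhibits both CDK9 and CDK2. Effects of MYCN and of transduction, or of CDK9 and CDK2, therefore cannot be told apart here.

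MYCN was listed at 0 FPKM in all SH-EP libraries and at 5.08 to 15.7 FPKM in the DMSO libraries of the 4 derivatives, with S62A lowest at 5.72 ± 0.778 (SD, n = 3). The mesenchymal markers PRRX1, FN1, VIM, and SNAI2 were present in all groups, but in DMSO each was lower in T58A S62A than in SH-EP. FN1 fell from 303 ± 1.70 FPKM in SH-EP to 28.3 ± 1.59 FPKM (SD, n = 3) in T58A S62A. Between the same groups the mean of PRRX1 fell from 111 to 37.7, of SNAI2 from 21.3 to 6.11, and of VIM from 2496 to 1335 FPKM. Of the adrenergic markers, PHOX2A was listed at 0 throughout, DBH and TH reached at most 0.0300 and 0.969 FPKM in any library, but HAND2 and GATA3 were present in all groups. HAND2 had group means of 46.1 to 84.5 FPKM in DMSO and 25.4 to 29.5 FPKM with CYC065, and GATA3 means of 2.004 to 9.27 FPKM. TWIST1, listed here as mesenchymal and also counted among adrenergic factors, was at group means of 4.07 to 36.6 FPKM. In DMSO its mean was 22.6 FPKM in SH-EP and 36.6 FPKM in T58A S62A, the opposite direction. The epithelial marker EPCAM reached at most 0.320 FPKM in any library, and the leukocyte marker PTPRC at most 0.204 FPKM. KRT18, listed as an epithelial marker as well, was at 196 FPKM or more in every library. Read totals are unknown. Low FPKM values gave relative depths of 0.47 to 1 in DMSO and 0.293 to 0.555 with CYC065, with 1 the deepest library. Each SH-EP library shares its index sequence with a library of a MYCN line, so such a pair would not be sequenced in 1 pool. The labels do not name the pools, so any effect of pool and the contrast of SH-EP with the MYCN lines cannot be told apart.

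The members spanned 3 orders of magnitude in level. FPKM corrects for transcript length but not for fragments shared between similar genes, so levels set side by side between genes are approximate. EEF1A1, which delivers aminoacyl-tRNA, was highest at a mean of 1901 FPKM over all libraries. EIF5A followed at 1191 FPKM and the translocase EEF2 at 934 FPKM. In the EIF4 group the helicase EIF4A1 was at 858 FPKM and EIF4G2, a scaffold that does not bind the cap protein, at 459 FPKM. The EIF3 group was led by EIF3I at 336 FPKM and EIF3K at 269 FPKM. EIF1, which keeps scanning open until the start codon is met, led the start site group at 423 FPKM, followed by EIF6, which keeps the ribosomal subunits apart, at 140.3 FPKM. The EIF2 subunits EIF2S3 and EIF2S2 were at 138 and 84.9 FPKM. The cap-binding protein EIF4E, at 14.8 FPKM, lay far below its scaffold EIF4G1 at 221 FPKM. The kinase EEF2K and the methyltransferase EEF2KMT, which modify EEF2, were at 4.71 and 8.78 FPKM.

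Of the 7 members under the filter, EEF1DP3 and EIF4E1B were listed at 0 in all 30 libraries, and EIF4E3 did not exceed 0.168 FPKM. EIF3C and EIF3CL are near-identical copies, as are EIF5A and EIF5AL1, and EEF1E1-BLOC1S5 is a readthrough of EEF1E1 into its neighbour, so fragments may be split between such copies. EIF3CL, for example, was at 5.10, 6.03, and 0.229 FPKM in the 3 S62A libraries in DMSO, and EIF3C at 0.149 FPKM on average over all libraries. Values of these copies are uncertain. EIF4EBP3 and EIF3IP1 had means of 0.316 and 0.418 FPKM. EIF1AY was counted with no value given.

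The first comparison asked whether the factors differ between MYCN lines and SH-EP in DMSO. On FPKM as deposited, 40 of the 56 tested members were higher and 3 lower in WT, against 31.6% higher and 22.6% lower among all genes tested (limma, adjusted p under 0.05). In T58A 32 were higher and 5 lower, against 30.9% and 23.3%. In S62A 34 were higher and 5 lower, against 31% and 23.4%. In T58A S62A 33 were higher and 4 lower, against 31.2% and 24.1%. The median member changed, in the same order, by 0.41, 0.27, 0.27, and 0.25 on the log2 scale, and the median gene tested by 0.071, 0.053, 0.063, and 0.059. A total of 24 members were higher in all 4 lines, against 19.2% of all genes, and 1 member, EIF4A2, was lower in all 4, against 13.4%. These differences are relative to the rest of the transcriptome in each library.

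Scaled to spike-ins, which were added by cell number, the direction was the opposite one. The median gene tested then differed from SH-EP by -1.16, -0.88, -1.86, and -0.75 (log2, lines in the order used above), and the median member by -0.84, -0.68, -1.68, and -0.58. In WT 50 members were lower, against 88.5% of all genes, in T58A 43 against 77.6%, in S62A 54 against 95%, and in T58A S62A 37 against 69.7%. In all 4 lines 35 members were lower, against 67.2%. No more than 2 members were higher in any line on this scale. All line differences in the next paragraphs are those of FPKM as deposited.

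**Figure D1:**
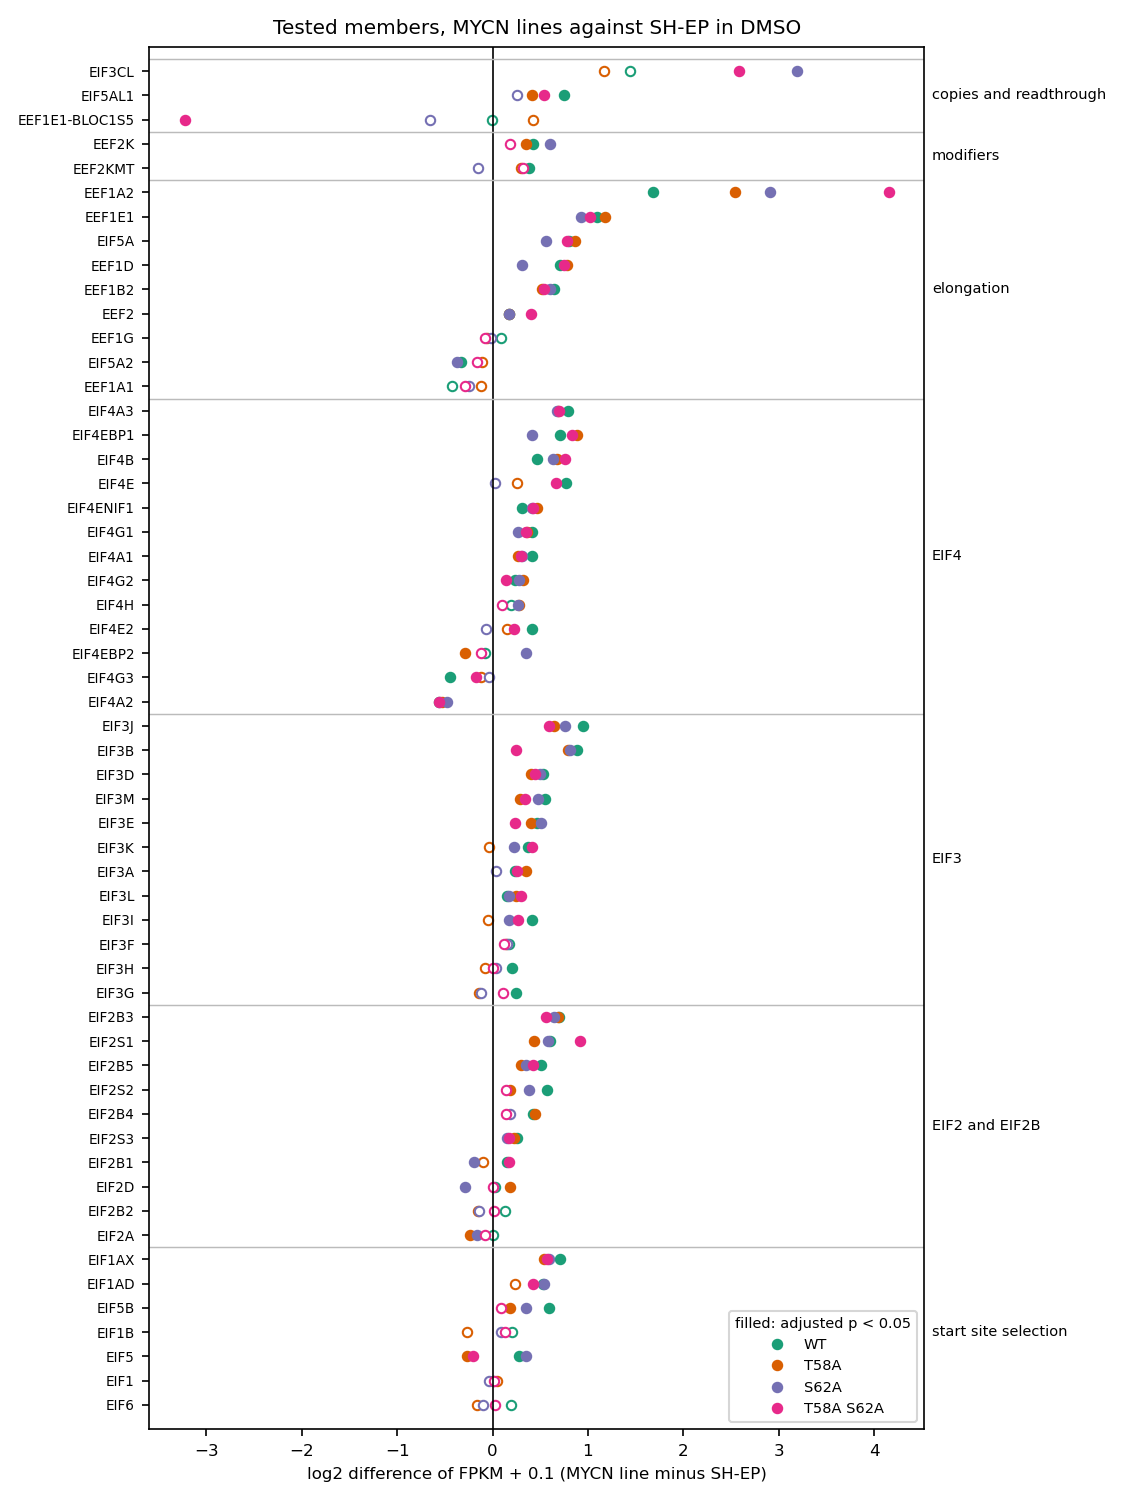
Log2 difference in FPKM + 0.1 between each MYCN line and SH-EP in DMSO for the 56 tested members, grouped by role, with 1 point per line from means of 3 libraries, filled where the adjusted p was under 0.05. Most members lie to the right of 0, EEF1A2 reaches 4.16 in T58A S62A, and EIF4A2 lies left of 0 in all 4 lines as deposited. With spike-in scaling 37 to 54 members a line were lower instead.

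The widest difference was that of EEF1A2 (chromosome 20, 62119366 to 62130592 of GRCh37, minus strand), the EEF1A paralog normally restricted to neurons and muscle. It was at 1.25, 1.22, and 0.994 FPKM in the 3 SH-EP libraries in DMSO. In WT it was at 4.81, 4.22, and 2.98 FPKM, in T58A at 8.13, 6.57, and 6.96 FPKM, in S62A at 9.00, 9.90, and 8.96 FPKM, and in T58A S62A at 20.1, 22.5, and 24.1 FPKM. The 5 lines did not overlap in any library, and the order was SH-EP, WT, T58A, S62A, T58A S62A, whereas MYCN was lowest in S62A among the derivatives. The log2 differences from SH-EP were 1.69 ± 0.16 (SE) in WT, 2.54 ± 0.16 in T58A, 2.91 ± 0.16 in S62A, with 4.16 ± 0.16 in T58A S62A (limma, adjusted p = 4.63e-09 or less). Scaled to spike-ins, EEF1A2 was still higher in T58A by 1.67, in S62A by 1.04, and in T58A S62A by 3.40 on the log2 scale, but in WT the 0.50 difference did not pass (limma, adjusted p = 0.0633). Its abundant paralog EEF1A1 (chromosome 6, 74199031 to 74235310) was at 892, 1902, and 1642 FPKM in SH-EP and at 817 to 1662 FPKM over the DMSO libraries of the MYCN lines, so that all lines overlapped. EEF1A1 passed the test in no line, with log2 differences of -0.43 to -0.12 and an SE of 0.36 (limma, adjusted p = 0.332 or more).

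Of the 9 elongation members, 6 were higher in each line as deposited, whereas with spike-in scaling 4 to 8 were lower and only EEF1A2 was higher, in 3 lines. EEF1E1 (chromosome 6, 8073593 to 8102792), an accessory protein of the tRNA synthetase complex, was at 30.4, 34.2, and 30.4 FPKM in SH-EP and at 59.0 FPKM or more in every DMSO library of the MYCN lines, with no overlap. Its log2 differences were between 0.93 and 1.18, with an SE of 0.11 (limma, adjusted p = 2.66e-07 or less). EIF5A (chromosome 17, 7210318 to 7215782) was at 541, 581, and 559.8 FPKM in SH-EP, against 1089.6, 934, and 914 in WT, 952, 1061, and 1045 in T58A, 799.5, 918, and 774 in S62A, with 1059.9, 875, and 969 in T58A S62A. Every MYCN-line library lay above every SH-EP library, and the log2 differences ran from 0.56 ± 0.074 in S62A to 0.86 ± 0.074 in T58A. The EEF1B subunits EEF1B2 and EEF1D rose in all 4 lines, by 0.52 to 0.65 and by 0.31 to 0.78 on the log2 scale. EEF1G, the third subunit, did not pass in any line, with differences of -0.076 to 0.09. EEF2 rose by 0.17 to 0.41, but its calls in WT, T58A, and S62A ended without any 1 of 2, 4, and 4 of the 6 libraries compared, at 0.093 to 0.17. The lowest of these came without library 1 of WT. EIF5A2, the minor EIF5A paralog, fell by 0.33 in WT and dropped by 0.38 in S62A.

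In the EIF3 group, 11 of 12 tested subunits were higher in WT, 7 in T58A, 8 in S62A, with 9 in T58A S62A, and none was lower, also at an unadjusted p under 0.05 (limma). With spike-in scaling 10 to 12 were lower and 0 higher. EIF3B, EIF3D, EIF3E, EIF3J, EIF3L, and EIF3M were higher in all 4 lines. EIF3J (chromosome 15, 44829323 to 44855227), a loosely bound subunit near the mRNA entry channel, was at 45.6, 43.0, and 46.6 FPKM in SH-EP and at 88.2, 83.9, and 88.2 in WT. Its log2 differences were 0.94 ± 0.064 in WT, 0.65 ± 0.064 in T58A, 0.76 ± 0.064 in S62A, with 0.60 ± 0.064 in T58A S62A. EIF3B (chromosome 7, 2393721 to 2420380), a core scaffold subunit, was at 110.0, 116, and 115 FPKM in SH-EP, 220.3, 205, and 203 in WT, and 129, 134, and 139.7 in T58A S62A. EIF3B thus rose by 0.88 ± 0.041 in WT and by 0.24 ± 0.041 in T58A S62A. EIF3G had the lowest mean difference of the group, at 0.027, and EIF3F differed by 0.12 to 0.17 without passing in any single line.

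In the EIF4 group, 9 of 13 tested members were higher in WT, 8 in T58A, and 9 each in S62A and T58A S62A, whereas with spike-in scaling 8 to 13 were lower and 0 higher. EIF4A3 (chromosome 17, 78108168 to 78120950), a helicase of the exon junction complex, was at 65.3, 67.1, and 61.6 FPKM in SH-EP and at 107, 104, and 104 FPKM in T58A S62A. Its log2 differences were close in the 4 lines, from 0.68 ± 0.055 in S62A to 0.79 ± 0.055 in WT (limma, adjusted p = 2.91e-10 or less). EIF4A2 (chromosome 3, 186500994 to 186507686), a paralog of EIF4A1 linked to repression of mRNAs, went the other way. It was at 164, 157, and 172 FPKM in SH-EP, 94.1, 117, and 124 in WT, 114, 119, and 109 in T58A, 114, 127, and 111 in S62A, with 108, 119.8, and 107 in T58A S62A. No library of a MYCN line reached the lowest SH-EP library, and EIF4A2 differed by -0.57 to -0.48 on the log2 scale, with an SE of 0.11 (limma, adjusted p = 0.000445 or less). The scaffolds EIF4G1 and EIF4G2, the RNA-binding cofactor EIF4B, the EIF4E transporter EIF4ENIF1, and EIF4EBP1, which sequesters EIF4E, were higher in all 4 lines, EIF4EBP1 by 0.41 to 0.88. EIF4E itself passed in WT at 0.77 ± 0.27 and in T58A S62A at 0.67 ± 0.27, but not in T58A or S62A, where the differences were 0.25 and 0.03. It was at 17.2, 14.2, and 11.5 FPKM in SH-EP, at 28.9, 23.6, and 20.4 in WT, and at 22.6, 36.0, and 13.97 in T58A S62A, so that WT lay above SH-EP and T58A S62A overlapped it. Without library 2 of T58A S62A, the difference of EIF4E was 0.33 (limma, adjusted p = 0.305), and the call also ended without library 1 of T58A S62A or library 2 or 3 of SH-EP, at 0.52 to 0.67. That of EIF4E in WT ended without library 1 of WT or library 3 of SH-EP, at 0.64 and 0.62.

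Of the 10 EIF2 and EIF2B members, 7 were higher in WT, 7 in T58A, 5 in S62A, with 5 in T58A S62A, while 2 were lower in T58A and 3 in S62A. With spike-in scaling 7 to 10 were lower. The EIF2 alpha subunit EIF2S1, the target of the stress kinases, rose by 0.43 to 0.92, and EIF2S3 by 0.15 to 0.26. EIF2B3, a catalytic core subunit of the exchange factor, was at 14.4, 17.5, and 15.4 FPKM in SH-EP and at 22.4 FPKM or more in every MYCN-line library in DMSO, a rise of 0.56 to 0.70. EIF2A, an alternative tRNA carrier, fell by 0.23 in T58A and fell by 0.16 in S62A. In the start site group, EIF1AX rose in all 4 lines, by 0.54 to 0.70, and EIF1 passed in none, with differences of -0.039 to 0.048. EIF5, the GTPase activator of EIF2, rose in WT by 0.27 and in S62A by 0.35 but fell by 0.26 in T58A and fell by 0.20 in T58A S62A, and with spike-in scaling all 4 were lower. Of the modifiers, EEF2K was higher in WT, T58A, and S62A, and EEF2KMT in WT. The call of EEF2KMT ended without any 1 of 5 of the libraries compared, at 0.34 to 0.41. With spike-in scaling both modifiers were lower in all 4 lines.

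**Figure D2:**
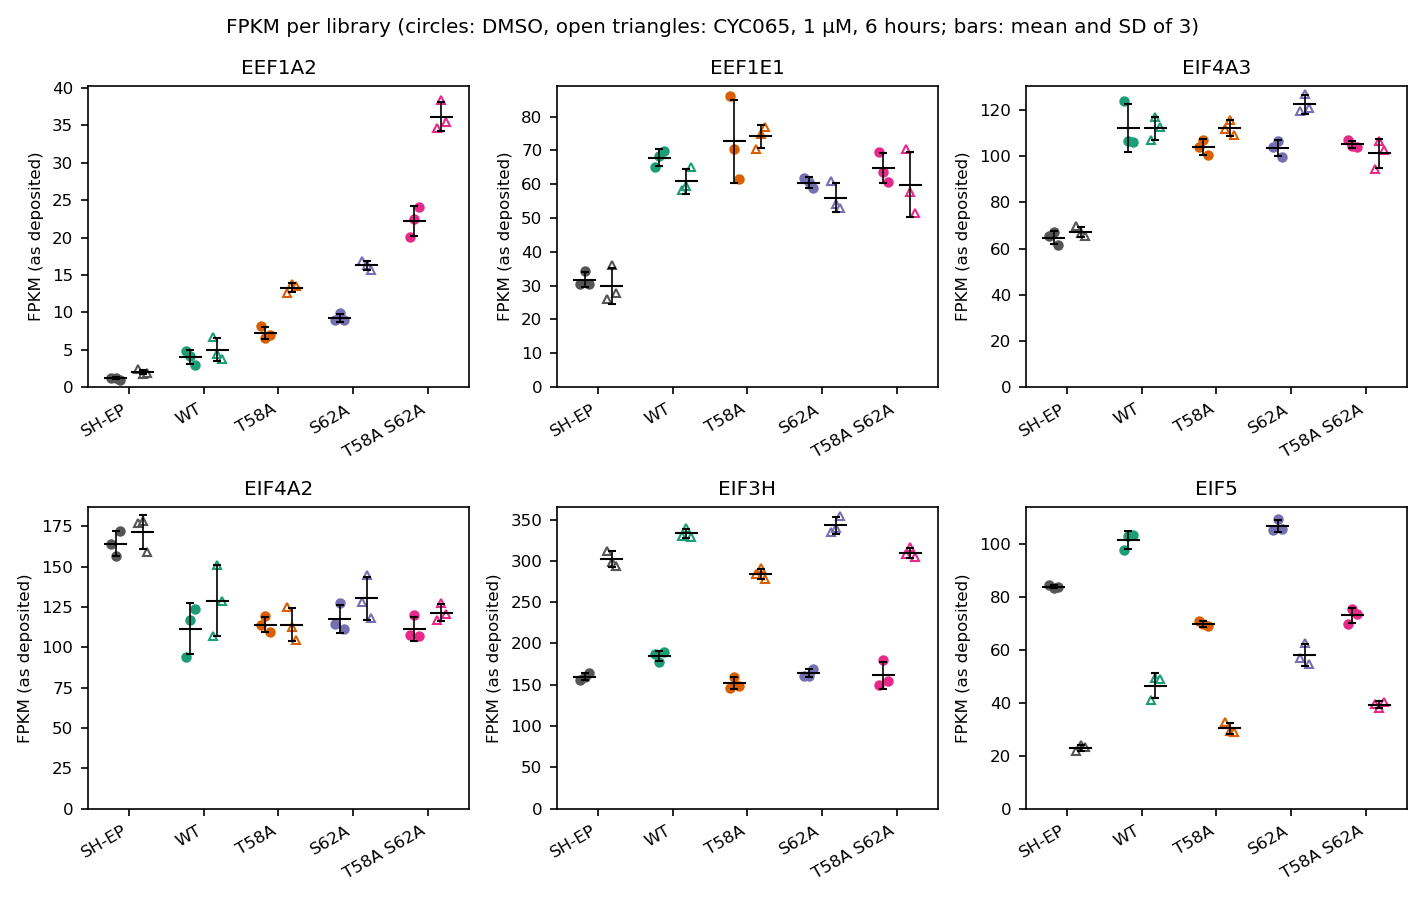
FPKM as deposited in each of the 30 libraries for 6 members, by line, with filled circles for DMSO, open triangles for CYC065, and bars for the mean and SD of 3 libraries. EEF1A2 climbs from 1.25 FPKM or less in SH-EP in DMSO to 20.1 FPKM or more in T58A S62A, EIF4A2 is highest in SH-EP, and with CYC065 EIF3H is higher and EIF5 lower in every line.

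MYC proteins with their partner MAX bind the E-box letters CACGTG, so promoters were read for them. RefSeq promoter sequences (250 bases before and 50 after each start, GRCh38.p14) matched 45 of the 56 tested members, and their positions in GRCh37 were found by exact match. CACGTG, which reads alike on both strands, was in a promoter of 11 of the 45 (24.4%), of 13.1% of the 8609 tested genes with a promoter, and of 7.26% of the 35116 promoters. The windows of 5 of these members are printed with the E-box in capitals, in the direction of transcription. They are examples chosen with their line differences known, not by a fixed rule.
EIF4E (chr4:99850339-99850368, minus strand): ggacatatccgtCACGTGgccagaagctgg
EIF4G1 (chr3:184032315-184032344, plus strand): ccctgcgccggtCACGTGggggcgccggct
EIF4A3 (chr17:78121031-78121060, minus strand): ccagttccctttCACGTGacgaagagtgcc
EIF4B (chr12:53400206-53400235, plus strand): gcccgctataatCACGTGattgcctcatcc
EIF2B3 (chr1:45452429-45452458, minus strand): gacagagggacaCACGTGtcgaatgctcct
The E-box of EIF4E shown begins at -72, counted from the first transcribed base as 0, that of EIF4G1 at -67, that of EIF4A3 at -121, that of EIF4B at -22, and that of EIF2B3 at -179. EIF4E and EIF4G1 each hold another CACGTG further upstream. Members with CACGTG had a median difference of 0.35 on the log2 scale, averaged over the 4 MYCN lines, and members without it 0.24. Over all tested genes with a promoter the medians were 0.18 with it and 0.050 without it. By this average the 5 members printed, in the order shown, were at 0.43, 0.35, 0.71, 0.63, and 0.65. The members with CACGTG that are not printed were mostly lower, with EEF2K at 0.39, EIF3K at 0.24, EIF4H at 0.21, EIF3F at 0.15, and EIF1B at 0.040. EIF5A2, which did not rise in any line, holds CACGTG as well, at -0.25. EEF1A2 was not among the 45 members with a promoter sequence. A match is a description of letters and not of binding.

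Whether the mutants differ from WT MYCN was the next comparison. In DMSO, T58A had 2 members higher and 20 lower than WT, against 10.7% and 13% of all genes. S62A had 3 higher and 19 lower, against 10.1% and 14%. T58A S62A had 5 higher and 11 lower, against 9.43% and 14.2%. EEF1A2 and EIF4G3 were higher in all 3 mutants, against 1.75% of all genes, and EIF3H, EIF3J, EIF4E2, and EIF5B were lower in all 3, against 2.06%. With spike-in scaling, no member was called in 1 direction in all 3 mutants by limma, where 5 of the 11575 genes were higher and 10 lower. On this scale 50 members were lower in S62A, against 74.8% of all genes, 0 in T58A, against 0.458%, and 1 in T58A S62A, against 1.02%. In the same order 0, 2, and 8 members were higher, against 0.181%, 8.13%, and 23.2%. At an unadjusted p under 0.05, too, no member was lower in T58A. As deposited, 13 members instead of 22 passed in S62A without library 1 of WT in DMSO.

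Subunits of EIF3, EIF2, and EIF2B were among the lower members. Of the 12 tested EIF3 subunits, 7 were lower in T58A, 5 in S62A, with 5 in T58A S62A. Of the 10 EIF2 and EIF2B members, 6, 4, and 1 were lower, in the same order. Among all genes tested 13%, 14%, and 14.2% were lower. EIF5B (chromosome 2, 99953834 to 100017789), which joins the subunits, was at 61.4, 57.4, and 57.2 FPKM in WT, 46.5, 44.9, and 41.2 in T58A, 51.2, 45.9, and 51.9 in S62A, with 39.2, 44.8, and 40.3 in T58A S62A. All mutant libraries lay below all WT libraries, and EIF5B differed from WT by -0.50 to -0.24 on the log2 scale with an SE of 0.057 (limma, adjusted p = 0.00303 or less). EIF4E2, a cap-binding paralog that represses translation, was at 48.0, 49.8, and 50.6 FPKM in S62A and at 78.0, 66.4, and 64.1 FPKM in WT. It differed from WT by -0.48 in S62A, -0.27 in T58A, and -0.19 in T58A S62A. EIF3B fell by 0.64 in T58A S62A and differed by -0.089 and -0.075 in T58A and S62A, where it did not pass. EIF3H differed from WT by -0.28 to -0.17 and EIF3J by -0.35 to -0.19, and EIF3J lost its call in all 3 mutants together when libraries were shifted to the median gene. The calls of EIF3H and EIF3J in S62A each ended without any 1 of 4 of the 6 libraries compared, libraries 1 and 2 of S62A and 1 and 3 of WT, at -0.16 to -0.15 and -0.17 to -0.16. That of EIF3H in T58A S62A ended without library 1 of T58A S62A, at -0.15. That of EIF4E2 in T58A S62A ended without library 2 or 3 of T58A S62A, at -0.19, or library 1 of WT, at -0.11.

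EIF4G3, the minor EIF4G scaffold, was higher in the mutants than in WT, by 0.32 ± 0.064 in T58A, 0.42 ± 0.064 in S62A, with 0.27 ± 0.064 in T58A S62A. It was at 11.2, 12.4, and 13.9 FPKM in WT and at 16.6, 17.3, and 17.2 FPKM in SH-EP, and every mutant library in DMSO lay above every WT library. Of the 4 lines, WT and T58A S62A had passed as lower than SH-EP, T58A S62A not without library 2 or 3 of SH-EP or library 3 of T58A S62A, at -0.17 to -0.13. EEF1A2 was higher than in WT by 0.86 ± 0.16 in T58A, 1.22 ± 0.16 in S62A, with 2.47 ± 0.16 in T58A S62A (limma, adjusted p = 0.000389 or less).

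Ratios between paralogs within a library do not depend on how libraries are scaled. Of 8 pairs, 5 differed between the 12 MYCN-line and the 3 SH-EP libraries in DMSO (2-sided exact permutation test of 455 splits, adjusted over the 8 pairs). The test treats single libraries as exchangeable, although they come from 5 lines. Its p therefore does not measure the spread between lines and cannot test an effect of MYCN. The EIF4A1 to EIF4A2 ratio was 3.65 in SH-EP and 6.30 to 7.20 in the MYCN lines, a log2 difference of 0.85 (exact permutation, adjusted p = 0.0044, from the smallest p the design allows, 0.0022). EIF5A over EIF5A2 was 79.8 in SH-EP and 153 to 175 in the MYCN lines, a difference of 1.00, with the same p. EEF1A1 over EEF1A2 fell from 1126 in SH-EP to 259.8 in WT, 177 in T58A, 127 in S62A, with 51.7 in T58A S62A, a difference of -3.09, with the same p. EIF4G1 over EIF4G3 was 0.54 higher, also at the smallest p. EIF4EBP1 over EIF4EBP2 was 0.74 higher (exact permutation, adjusted p = 0.0387), but by only 0.067 in S62A, and the call ended on leaving out any 1 of 7 of the 15 libraries. These were WT library 2, T58A libraries 2 and 3, T58A S62A libraries 1 and 3, and SH-EP libraries 1 and 3, without which the difference was 0.68 to 0.75 (exact permutation, adjusted p = 0.0527 to 0.123). EIF4E over EIF4E2, EIF4G1 over EIF4G2, and EIF1 over EIF1B differed by 0.25, 0.10, and -0.032 and did not pass.

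**Figure D3:**
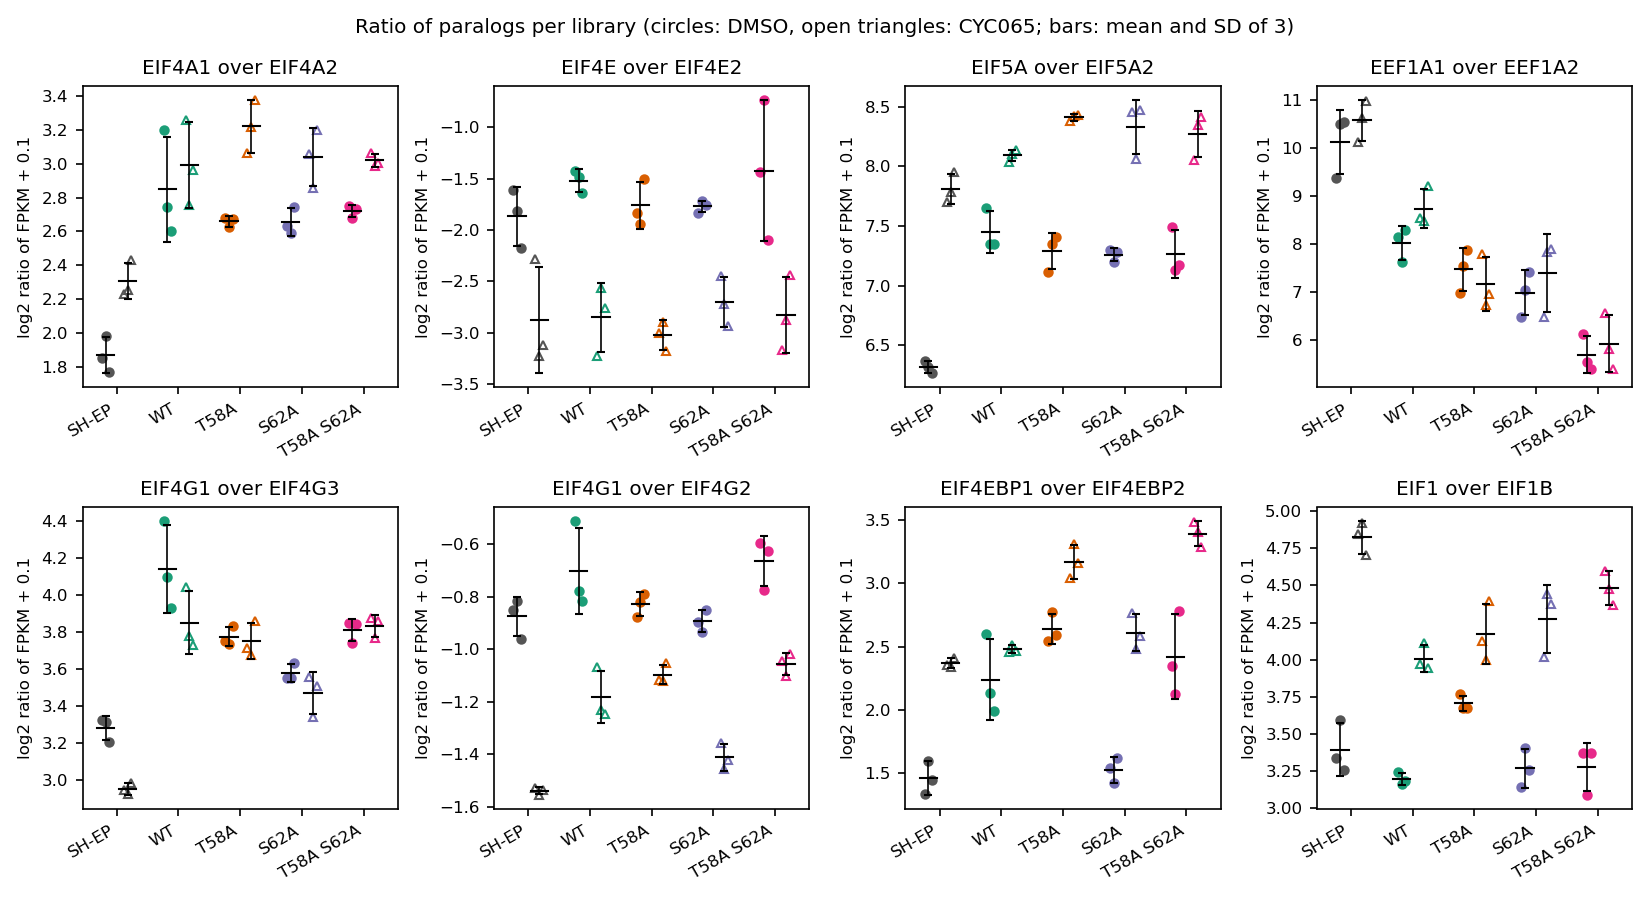
Log2 ratio of FPKM + 0.1 between 8 pairs of paralogs in each library, by line, with filled circles for DMSO, open triangles for CYC065, and bars for the mean and SD of 3 libraries. In DMSO the SH-EP libraries lie below the MYCN lines for EIF4A1 over EIF4A2 and EIF5A over EIF5A2 and above them for EEF1A1 over EEF1A2, and CYC065 lowers EIF4E over EIF4E2 in every line.

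The effect of CYC065 was read on FPKM scaled to the spike-ins, which allows for a change in RNA per cell. As the spike-ins were added by cell number, values on this scale are per counted cell. An error in the cell counts and a change in RNA per cell cannot be told apart here. On this scale 42 members were lower in SH-EP, against 75.7% of all genes, 54 in WT against 93.7%, 49 in T58A against 84.2%, 53 in S62A against 90.2%, and 41 in T58A S62A against 76.3%. No member was higher in any line by limma at an adjusted p under 0.05, where 0.907%, 0.769%, 1.25%, 0.968%, and 1.85% of all genes were. At an unadjusted p under 0.05 no member was higher either. In all 5 lines 39 members were lower, against 69.4%. The median member changed by -0.78 in SH-EP, -1.34 in WT, -0.77 in T58A, -1.04 in S62A, with -0.71 in T58A S62A on the log2 scale. The median gene changed by -1.06, -1.57, -1.08, -1.35, and -0.97.

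The members were then read relative to the median gene, after each library was shifted so that the median difference of the tested genes from their own means was 0, a scaling chosen after the data were seen. This shift left the median CYC065 change of all genes between 0.038 and 0.13 on the log2 scale. In SH-EP 37 members were higher and 11 lower, against 42.2% and 34.1% of all genes. In WT 31 were higher and 11 lower, against 36.1% and 34.9%. In T58A 36 and 7, against 36.9% and 34.2%. In S62A 38 and 10, against 37.7% and 35.6%. In T58A S62A 36 and 11, against 37.6% and 35%. In all 5 lines 29 members were higher, against 27.6% of all genes, and 5 lower, against 25.2%.

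**Figure D4:**
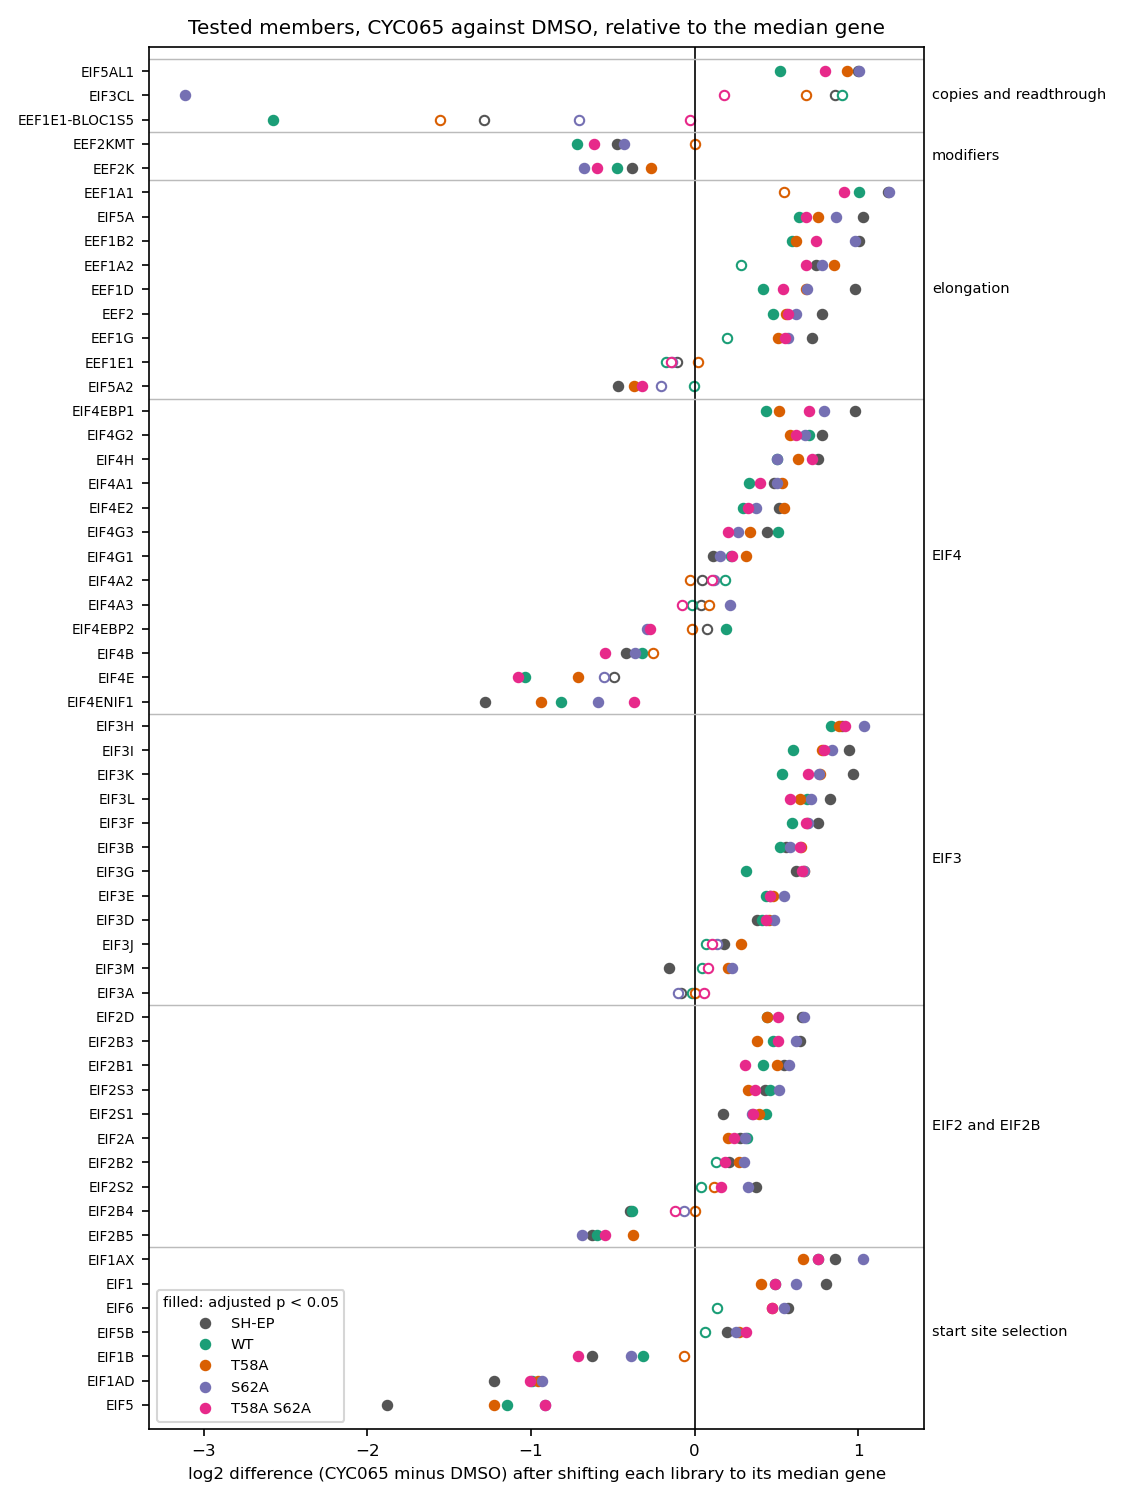
Log2 difference between CYC065 and DMSO, relative to the median gene, for the 56 tested members, grouped by role, with 1 point per line from means of 3 libraries, filled where the adjusted p was under 0.05. Most EIF3 and elongation members lie to the right of 0, while EIF5, EIF1AD, EIF4ENIF1, EIF2B5, and EEF2K lie to the left in all 5 lines.

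EIF5 (chromosome 14, 103799881 to 103811362) had the lowest mean change of the start site group. As deposited it was at 84.6, 83.5, and 83.9 FPKM in SH-EP in DMSO and at 21.6, 24.0, and 23.5 FPKM with CYC065. In WT it went from 97.8, 103, and 104 to 41.0, 49.3, and 49.1 FPKM, and in T58A S62A from 70.0, 75.5, and 73.8 to 39.6, 37.9, and 40.5 FPKM. The treatments did not overlap in any line. Spike-in scaled, EIF5 changed by -3.12 in SH-EP, -2.81 in WT, -2.39 in T58A, -2.38 in S62A, with -1.97 in T58A S62A on the log2 scale, each with an SE of 0.17 (limma, adjusted p = 1.64e-10 or less). Relative to the median gene the changes were -1.88 ± 0.063, -1.15 ± 0.063, -1.22 ± 0.063, -0.91 ± 0.063, and -0.92 ± 0.063 in the same order. EIF1AD, a protein related to EIF1A, was at 16.8, 14.3, and 15.3 FPKM in WT in DMSO and at 7.71, 7.38, and 8.39 FPKM with CYC065. It changed by -1.22 to -0.93 over the 5 lines relative to the median gene (limma, adjusted p = 2.8e-07 or less).

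The other members lower in all 5 lines were EIF2B5, the catalytic subunit of the exchange factor, EEF2K, and EIF4ENIF1, the last of which was named after its values were seen. EIF2B5 (chromosome 3, 183852826 to 183863915) was at 33.6, 34.8, and 33.8 FPKM in S62A in DMSO and at 22.2, 21.1, and 21.2 with CYC065, and its change relative to the median gene was -0.69 to -0.38 over the lines. EIF4ENIF1 changed by -1.28 in SH-EP and by -0.37 in T58A S62A, and EEF2K by -0.67 to -0.26 over the lines. The start site group was thus divided, since EIF1AX and EIF1 were higher than the median gene in all 5 lines, by 0.66 to 1.03 and 0.40 to 0.80, where EIF5 and EIF1AD were lower.

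The EIF3 subunit EIF3H (chromosome 8, 117654369 to 117779164) had the highest smallest change of the members above the median gene in all 5 lines. As deposited it was at 155, 159.8, and 165 FPKM in SH-EP in DMSO and at 312, 299, and 294 with CYC065. In S62A it went from 161, 161, and 169 to 335, 339, and 354 FPKM. Relative to the median gene it was higher by 0.83 to 1.04, with an SE of 0.05 (limma, adjusted p = 7.8e-13 or less). Spike-in scaled, the same gene fell by 0.83 in WT and fell by 0.44 in S62A, and did not pass in SH-EP, T58A, or T58A S62A, with changes of -0.34, -0.29, and -0.14. Its libraries, scaled to spike-ins, were at 500.2, 487, and 540.2 in SH-EP in DMSO and at 444, 429, and 344 with CYC065, which did not overlap.

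Of the 12 EIF3 subunits, 9 were higher than the median gene in all 5 lines and none was lower in all 5. EIF3I was higher by 0.60 to 0.95 and EIF3F by 0.60 to 0.76, whereas EIF3A, the largest subunit, changed by -0.10 to 0.058 and passed in none. In the elongation group EIF5A was higher by 0.64 to 1.03, with EEF1B2, EEF1D, and EEF2 also higher in all 5 lines. EEF1A1 was higher by 0.91 to 1.19 in 4 lines, with an SE of 0.36, and did not pass in T58A at 0.54. The call of EEF1A1 in WT ended without library 2 of WT in DMSO or library 1 with CYC065, at 0.86 and 0.87, and that in T58A S62A without library 2 or 3 in DMSO or library 1 with CYC065, at 0.63 to 0.85. Its libraries with CYC065 ran from 1476 FPKM in T58A to 4055 FPKM in SH-EP, as deposited. Of the 13 EIF4 members, 7 were higher in all 5 lines, among them EIF4A1, EIF4G1, EIF4G2, EIF4G3, and EIF4H. EIF4E changed by -1.04 in WT, -0.71 in T58A, and -1.08 in T58A S62A (limma, adjusted p = 0.0201 or less), and by -0.49 and -0.55 in SH-EP and S62A without passing. The call of EIF4E in T58A ended without library 3 of T58A in DMSO or with CYC065, at -0.63 and -0.64. Of the 10 EIF2 and EIF2B members, 6 were higher in all 5 lines.

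Many mRNAs of the translation machinery begin with a C followed by a run of pyrimidines, the terminal oligopyrimidine (TOP) start, through which their translation follows nutrient signals. Among the 45 tested members with a RefSeq promoter, 12 (26.7%) had a C at a first transcribed base followed by at least 4 C or T, against 7.81% of the 8609 tested genes and 4.07% of all promoters. Stretches of 30 bases around the start are printed for 6 of them, chosen as the most abundant elongation factors, as EIF3 subunits, and as the member that goes the other way, with the pyrimidine run in capitals from the first transcribed base.
EEF1A1 (chr6:74230736-74230765, minus strand): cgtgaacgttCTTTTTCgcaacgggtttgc
EEF2 (chr19:3985442-3985471, minus strand): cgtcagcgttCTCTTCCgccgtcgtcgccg
EEF1B2 (chr2:207024609-207024638, plus strand): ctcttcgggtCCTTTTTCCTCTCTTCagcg
EIF3F (chr11:8008874-8008903, plus strand): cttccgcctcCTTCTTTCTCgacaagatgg
EIF3K (chr19:39109818-39109847, plus strand): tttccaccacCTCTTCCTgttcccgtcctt
EIF4B (chr12:53400230-53400259, plus strand): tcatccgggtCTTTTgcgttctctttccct
Averaged over the 5 lines, 11 of these 12 members were above 0 relative to the median gene, with a median of 0.49 and a range of -0.38 to 0.97, and EIF4B was the one below 0. Of the other 33 members 21 were above 0, with a median of 0.22 and a range of -1.23 to 0.85. Over all tested genes with a promoter the medians were 0.21 with such a start and 0.042 without it. The members with it were also more abundant, with a median level of 165 FPKM against 59.5 FPKM. The part of abundance in this pattern was not tested.

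**Figure D5:**
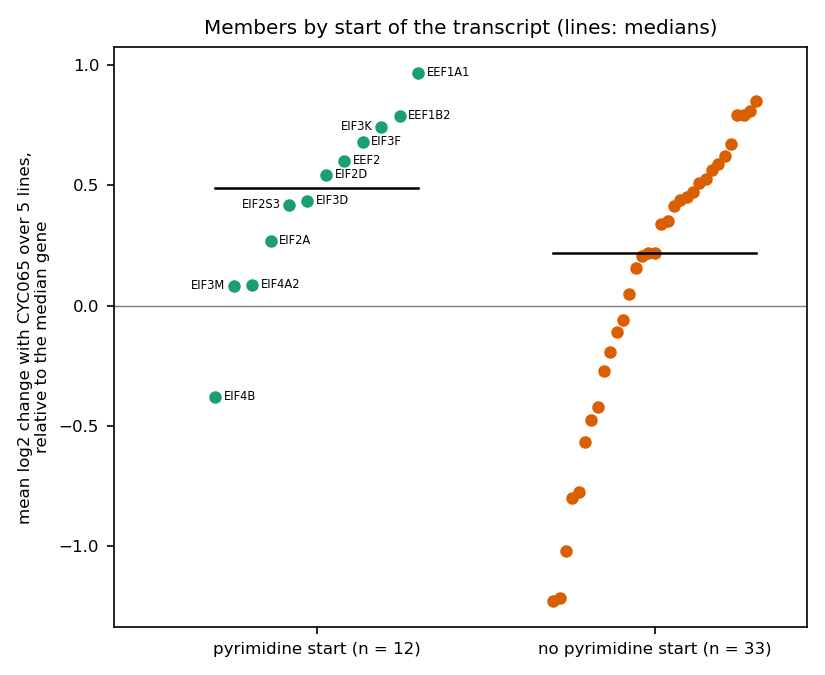
Mean log2 change with CYC065 over the 5 lines, relative to the median gene, for the 45 tested members with a RefSeq promoter, split by whether a transcript start is a C followed by at least 4 pyrimidines, with 1 point per member and lines at the medians of 0.49 and 0.22. All labelled members except EIF4B lie above 0, and the members without such a start reach from -1.23 to 0.85.

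Paralog ratios also differed between CYC065 and DMSO, in 7 of 8 pairs (2-sided exact permutation of treatment within each of the 5 lines, 3200000 arrangements, adjusted over the 8 pairs). EIF4E over EIF4E2 changed by -1.19 on the log2 scale, and by -0.93 to -1.40 in the single lines. EIF5A over EIF5A2 was 1.07 higher, with the smallest change, 0.64, in WT. EIF1 over EIF1B, a pair with the same role in start codon choice, was 0.98 higher, going in SH-EP from 10.5 to 28.3. These 3 pairs and EIF4G1 over EIF4G2, which changed by -0.46, had an adjusted p of 1.25e-06 (exact permutation), from the smallest p the design allows, 6.25e-07. EIF4EBP1 over EIF4EBP2 was 0.75 higher (exact permutation, adjusted p = 4e-06), and EIF4A1 over EIF4A2 was 0.37 higher (exact permutation, adjusted p = 3.17e-05). EIF4G1 over EIF4G3 changed by -0.15 (exact permutation, adjusted p = 0.00457), with -0.33 in SH-EP, -0.29 in WT, -0.11 in S62A, and -0.022 in T58A, while T58A S62A was at 0.024. EEF1A1 over EEF1A2 did not pass at 0.30 (exact permutation, adjusted p = 0.126), but passed at 0.39 without library 1 of S62A with CYC065 (exact permutation, adjusted p = 0.0442).

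Whether CYC065 acted differently in a MYCN line than in SH-EP was tested as an interaction on spike-in scaled FPKM. In WT 10 members passed, all lower, against 18.1% of all genes in either direction. In T58A and S62A 0 passed, against 2.59% and 4.95%, and in T58A S62A 2 passed, both higher, against 5.41%. At an unadjusted p under 0.05, 3 were higher in T58A, and in S62A 1 was higher and 2 lower. The count in WT rested on single libraries, since leaving out any 1 of 8 of the 12 libraries gave 0 calls, and the other 4 gave 25 (without library 2 of WT in DMSO), 17 (library 1 of WT with CYC065), 16 (library 3 of SH-EP with CYC065), and 11. The count in T58A S62A was 1 without any 1 of 8 of the 12 libraries. EIF5 was 1.15 higher in T58A S62A than in SH-EP, an interaction that is a smaller fall. Relative to the median gene, EIF5 fell less in all 4 MYCN lines than in SH-EP, by 0.66 to 0.97 on the log2 scale with an SE of 0.09 (limma, adjusted p = 1.14e-05 or less), where 5.23% of all genes were higher in all 4. EIF5 was called in all 4 also as deposited and with libraries centred on their median, but not with spike-in scaling, where no member was called in all 4. After the shift to the median gene, all tested genes kept median interactions of -0.12, -0.084, -0.090, and -0.103 (WT, T58A, S62A, T58A S62A). These medians are not subtracted from the values given for single members. EEF1D and EIF1 had a lower change than in SH-EP in all 4 MYCN lines relative to the median gene, where 5.12% of all genes did, EEF1D by -0.56 to -0.29 and EIF1 by -0.40 to -0.18 on the log2 scale. As deposited only EEF1D did so, and with libraries centred on their median neither did. The calls of EEF1D in T58A and S62A ended without any 1 of 7 and of 8 of the 12 libraries compared, at -0.30 to -0.24, and that of EIF1 in S62A without any 1 of 9, at -0.19 to -0.15.

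Other genes of the pathway were read from a list of regulators and neighbours, of which 40 of 41 were tested. In DMSO 19 were higher and 8 lower in WT than in SH-EP, against 31.6% and 22.6% of all genes. In T58A 21 and 4 were, against 30.9% and 23.3%, in S62A 22 and 7, against 31% and 23.4%, and in T58A S62A 19 and 3, against 31.2% and 24.1%. In all 4 lines 13 were higher, against 19.2% of all genes, among them the EIF2 phosphatase subunit PPP1R15A, the ribosome recycling factor ABCE1, and the poly(A)-binding protein PABPC1, with mean log2 differences of 0.68, 0.38, and 0.34. The ribosome rescue factor PELO and the mTORC1 inhibitor TSC2 were lower in all 4, against 13.4% of all genes, with means of -0.48 and -0.60. With spike-in scaling 30 of the 40 were lower in all 4 lines, against 67.2% of all genes, and none was higher in all 4. With CYC065, 32 of the 40 were lower in all 5 lines after spike-in scaling, against 69.4%. Relative to the median gene 16 of the 40 were higher in all 5, against 27.6% of all genes, among them PABPC1 at a mean of 0.75, and 5 were lower, against 25.2%. The mTORC1 pathway genes were divided. RPTOR and RPS6KB1 were among the 5 lower, at -0.99 and -0.62, but RHEB, RPS6KB2, and the inhibitor TSC2 were among the 16 higher, at 0.82, 0.61, and 0.54. MLST8, MTOR, and TSC1, at 0.22, -0.098, and -0.26, were in neither group. MTOR was the one listed gene higher in all 3 mutants than in WT.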

How the data were processed

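Total RNA of the cell lines was spiked with ERCC controls by cell number, poly(A) selected, made into strand-specific libraries, and sequenced on a NextSeq 500. The authors aligned reads with HISAT2 (listed as HISAT in the submitters' processing notes) to hg19 and deposited FPKM values made with Cufflinks, with no counts, so depth in reads is unknown. The gene annotation used is not given in the sources used here. An exact 0 in such values can be a failed estimate.

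The members, roles, and gene lists were chosen with earlier results of these data known. FPKM + 0.1 was put on the log2 scale for the 11575 genes whose mean over all libraries reached 1 FPKM, and 1 model over 10 groups of 3 libraries was fitted with limma 3.58.1 in R 4.3.3 (trended variance, Benjamini-Hochberg adjustment over all tested genes, threshold 0.05). Line and mutant comparisons used FPKM as deposited. CYC065 comparisons used FPKM scaled to the median of 55 of the 92 spike-ins, with a shift to the median gene beside it. A fold change is on the log2(FPKM + 0.1) scale and understates changes of low genes. Ratios of paralogs were compared by exact permutation. Scripts were tested on simulated data. One marker gene is not reported here. Named members were the 2 most abundant and the 2 extremes of line change in each role, all paralog pairs, and up to 5 members rising and falling in all lines of a comparison. Others are examples chosen after their values were seen. Positions of genes are those of the GRCh37 annotation. Promoters came from RefSeq, and their windows were placed in GRCh37 by exact match. Alternatives were other pseudocounts, filters, scalings, a fold threshold, a fit of only the groups compared, and leaving out each library.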

Additional observations from a re-analysis of the deposited data

Results flagged for a closer look

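The change with CYC065, scaled to spike-ins, differed between WT and SH-EP for 10 members by a test of the difference itself (interaction term in limma, adjusted p = 0.0296 to 0.0498), all with a lower change in WT, where 18.1% of all tested genes differed in either direction. Leaving out any 1 of 8 of the 12 libraries compared gave 0 such members. On the log2 scale the differences were -0.84 for EEF1B2, -0.99 for EEF1D, -0.76 for EIF2S2, -0.74 for EIF3G, -0.78 for EIF3I, -0.87 for EIF3K, -0.98 for EIF4EBP1, -0.82 for EIF5A, -0.91 for EIF5AL1, and -0.87 for EIF6. The median of all tested genes differed by -0.52 in the same contrast. In T58A S62A the change differed from that in SH-EP by 1.10 for EIF4ENIF1 (limma, adjusted p = 0.0278) and by 1.15 for EIF5 (limma, adjusted p = 0.00353), where the median of all tested genes differed by 0.078.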

How the results depend on the processing

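No paired analysis was possible because the numbers in the column names of the deposited values do not match the replicate numbers of the labels, so the alternative with a replicate block was not run. Counts are of members past the threshold in either direction. Lines are taken in the order WT, T58A, S62A, then T58A S62A. Scaled to spike-ins, the line counts were 50, 44, 55, and 39, with the direction turned, and 15, 10, 12, and 12 with a change of at least 1.5-fold. They ran over 37 to 44, 32 to 37, 36 to 39, and 33 to 37 without 1 library. The mutant counts for T58A, S62A, and T58A S62A were 2, 50, and 9 with spike-in scaling, 1, 2, and 3 with 1.5-fold, and 13, 10, and 5 in a fit of only the groups compared, and ran over 18 to 21, 13 to 22, and 12 to 15 without 1 library. The CYC065 counts, SH-EP first, turned direction to 48, 43, 43, 49, and 47 as deposited, 46, 50, 44, 46, and 48 with libraries centred on their median, and 48, 42, 43, 48, and 47 when shifted to the median gene, the last chosen after the data were seen. They ran over 36 to 43, 54 to 55, 41 to 53, 48 to 54, and 32 to 42 without 1 library. The interaction counts were, in WT, 6 with a pseudocount of 1 FPKM, 3 with no filter, 0 in a fit of only the groups compared, and 0 to 25 without 1 library. In S62A they were 1 with a pseudocount of 1 FPKM, 1 in a fit of only the groups compared, 5 as deposited, 4 centred, 6 shifted, and 0 to 1 without 1 library. In T58A they were 10 as deposited, 10 centred, 10 shifted, and 0 to 0 without 1 library, and in T58A S62A 9, 9, and 8, and 1 to 2 without 1 library. EEF1A1 over EEF1A2 with CYC065 passed at 0.39 with a pseudocount of 1 FPKM (exact permutation, adjusted p = 0.0457) and ran over 0.22 to 0.39 without 1 library, and EIF4EBP1 over EIF4EBP2 between lines over 0.68 to 0.82. The cause was not tested for any of these changes other than those of scaling. With spike-in scaling the mean line change reversed for 21 named members: EEF1E1 -0.19, EEF2K -0.84, EIF1AD -0.81, EIF1AX -0.64, EIF2B3 -0.60, EIF2B5 -0.85, EIF2S2 -0.93, EIF2S3 -1.05, EIF3F -1.10, EIF3I -1.05, EIF3J -0.51, EIF3K -1.01, EIF4A1 -0.93, EIF4A3 -0.53, EIF4E2 -1.07, EIF4EBP1 -0.54, EIF4G1 -0.90, EIF4G2 -1.004, EIF5A -0.50, EIF5AL1 -0.74, and EIF5B -0.94. Of the calls of single members in single lines, 25 of 156 between lines, 24 of 60 between mutants and WT, 19 of 228 with CYC065, and 13 of 39 interactions, the last 2 kinds shifted to the median gene, ended without at least 1 library. Among members called in every line, these were EEF2, EIF3E, EIF4ENIF1, and EIF4G2 between lines and EEF2K, EIF2S1, EIF4ENIF1, and EIF4G1 with CYC065, each in 1 line except EEF2 in 3. Depth in reads is unknown, and 3 libraries a group limit the precision.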
